A study of Mus musculus with 91 samples.

Results

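Ribosome biogenesis genes, here 56 genes whose proteins transcribe ribosomal RNA or turn it into ribosomal subunits, were followed through 8 count tables of splenic regulatory T cells (Tregs). The genes were taken by symbol from a list of known factors, and that choice was made with earlier results of these data known. Each treated group was set against the PBS group of its own table. All 56 were present in each of the 8 tables and passed the low-count filter in every fit, out of 20378 genes found in any table. Tregs, a class of CD4 T cells marked by Foxp3, hold back immune responses.

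Total RNA, freed of ribosomal RNA, was sequenced from Tregs sorted from the spleens of C57/BL6 mice that carry an RFP-FoxP3 reporter, and all groups shared this background. The injected agents were mouse IL-2, the cytokine that Tregs need for survival, or FP, a fusion protein of mouse IL-2 with its receptor chain CD25, and controls received PBS. At 1.5 h and at 16 h after injection every one of the PBS, IL-2 and FP groups had 4 libraries. At 4 h there were 3 PBS, 4 IL-2 and 3 FP libraries. At 72 h there were 3 PBS, 3 IL-2 and 4 FP libraries, and at 168 h 3 PBS and 4 FP libraries. The in vitro table held 3 PBS and 3 IL-2 libraries with a time of 1.5 h, and the labels describe the culture no further. In the high-dose table mice received PBS or IL-2, again with 3 libraries each, and neither the dose nor the time is in the labels. In the restimulation table, with a time of 1.5 h in its titles, mice received PBS and PBS (3 libraries), PBS and a single FP (3, called single FP) or FP and FP again (4, called repeated FP), and the interval between injections is not in the labels. One protocol text, with 20 µg of FP or 100 µL of PBS and a time of 1.5 h, accompanies all samples, so times were taken from titles. The labels do not say that libraries of a group came from separate animals, so the p-values cover no more than library-to-library spread, which may be technical.

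Library totals ran from 12212262 to 46108114 counted reads. Foxp3 lay between 349 and 982 CPM (counts scaled to a common library total) in every library, while the summed markers of B cells stayed between 20.9 and 68.6 CPM and those of CD8 T and NK cells between 8.00 and 25.0 CPM. Myeloid markers varied most, from 24.0 to 1353 CPM, with 8 to 11 of 12 listed genes measured in a table. Labels of 2 libraries at 4 h contradict each other, and these 2 entered no comparison. The library labelled single FP replicate 1 stood with the PBS libraries: its Il2ra level was 566 CPM, against 569 to 639 in PBS and 1785 and 1708 in the other single FP libraries.

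Ribosomes are built mostly in the nucleolus. RNA polymerase I transcribes one long precursor, small nucleolar RNPs guide its methylation and pseudouridylation, the small subunit processome and late factors fold and cut the part that becomes the 40S subunit, and a further set of helicases, GTPases and scaffolds assembles the 60S subunit. In T cells this pathway is known to be switched on when a resting cell starts to grow, and IL-2 is one of the signals that can start growth. The 56 genes fall into 5 of RNA polymerase I transcription, 3 of box C/D and 4 of box H/ACA small nucleolar RNPs, 5 abundant nucleolar proteins, 16 of the small subunit processome, 5 of late 40S maturation and 18 of 60S assembly.

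Promoter sequence is shown for members that hold the letters CACGTG (an E-box, which reads the same on both strands) upstream of the annotated start. Promoter windows from 250 bases before to 50 bases after the start were found for 50 of the 56 genes in the RefSeq table (GRCm38.p6). The letters were in 10 of 50, or 20%, against 11.3% of the 11001 genes that have a window and are in the 1.5 h table, and 8.09% of all 27025 genes with a window. The letters CCGGAAG on either strand, a form of the ETS family's motif that can share no base with the E-box, were in 19 of 50, or 38%, against 19.2% and 9.93%. In 3 of the 10 genes the box lies before the start. The RefSeq sequences around it, all on the plus strand and 66 bases long, follow with the box in capitals. They are Imp4 (chr1:34439678-34439743), a subunit of the processome's U3 particle, with the box 121 bases upstream, Nop2 (chr6:125131793-125131858), a 28S rRNA methyltransferase of 60S assembly, with the box 60 bases upstream, and Rrn3 (chr16:13780621-13780686), the initiation factor that makes RNA polymerase I competent, with the nearer of its boxes 48 bases upstream.
Imp4: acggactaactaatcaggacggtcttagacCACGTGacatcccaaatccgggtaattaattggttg
Nop2: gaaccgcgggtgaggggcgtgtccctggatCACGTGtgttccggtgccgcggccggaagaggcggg
Rrn3: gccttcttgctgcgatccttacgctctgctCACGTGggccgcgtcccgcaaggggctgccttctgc
A match is a description of letters and no binding was measured here. A link between the letters and the changes below was not tested. Rrn3 and Nop2 recur below with levels in single libraries.

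In the PBS libraries the levels of the members differed widely. Per kilobase of exon (GENCODE M21), the median of the PBS means of the 8 tables (the in vitro one included), which were scaled separately, was 135 CPM for Npm1, 53.0 for Ncl and 42.01 for Ddx21. These encode nucleophosmin, nucleolin and an RNA helicase that binds rRNA and small nucleolar RNAs, all abundant nucleolar proteins. Nop56, a core protein of box C/D particles, followed at 29.4 CPM per kilobase. At the other end were Wdr74 at 0.93, Wdr12 at 2.73 and Dimt1 at 3.62 CPM per kilobase. The polymerase subunits lay between, with 9.13 for Polr1a, the largest subunit, 7.42 for Polr1b, the second largest, and 14.2 for Polr1c, which RNA polymerase III also uses. The table means of neighbours in this order overlap throughout, apart from Npm1, whose lowest table mean of 92.6 lay above the highest of Ncl at 82.6.

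**Figure D1:**
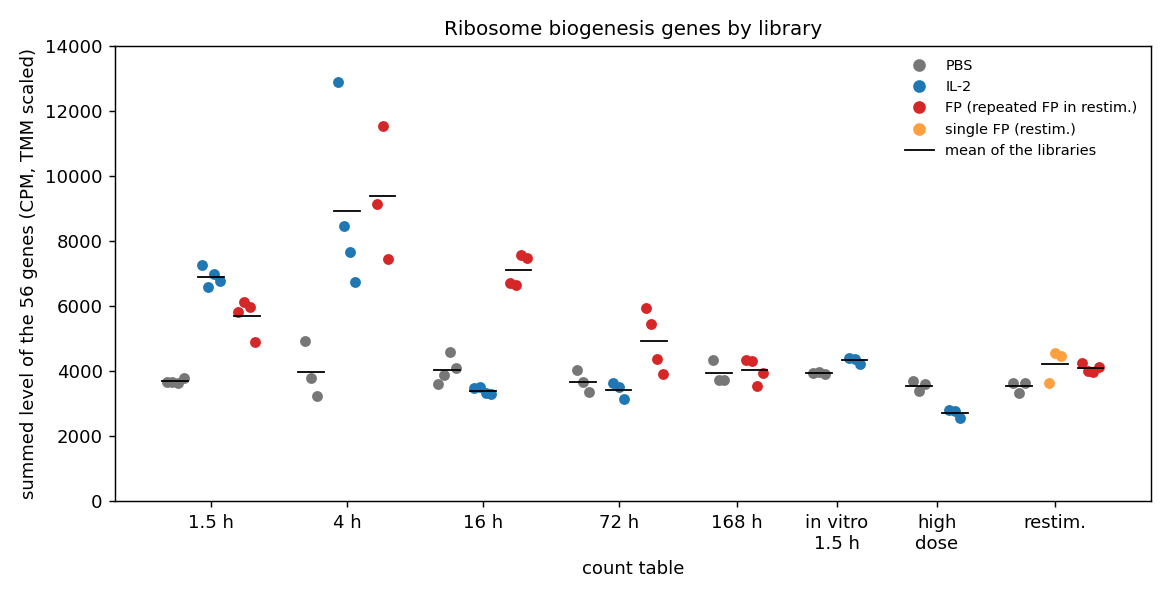
Summed level of the 56 genes (vertical axis, CPM) in each library, by count table (horizontal axis), with PBS in grey, IL-2 in blue, FP or repeated FP in red and single FP in orange. Black bars are means of the libraries; IL-2 libraries stand above PBS at 1.5 h and 4 h and at 3291 to 3502 CPM at 16 h, when FP libraries hold 6660 to 7578 CPM.

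The levels at 1.5 h address how soon the pathway answers an injection. Of the 56 genes, 52 rose with IL-2 and 43 with FP, and none fell, under edgeR's quasi-likelihood test at an adjusted p under 0.01 over all genes tested. The share of all genes called higher was 8.39% for IL-2 and 4.39% for FP. The median log2 change of the members was 0.95 (1.93-fold) with IL-2 and 0.69 (1.62-fold) with FP, beside -0.01 for all genes in both comparisons. In 54 genes every IL-2 library lay above every PBS library, and in 48 every FP library did, where 13.8% and 9.94% of all genes did so. IL-2 and FP shared their PBS libraries. Summed over the members, PBS libraries held 3637 to 3801 CPM, IL-2 libraries 6574 to 7277 and FP libraries 4882 to 6134. In bulk samples fewer cells of a type and less RNA per cell cannot be told apart. Myeloid marker sums overlapped between the groups (281 to 1078 CPM in PBS, 248 to 1353 in IL-2 and 610 to 877 in FP, 10 of 12 markers measured, none at 0 throughout a group).

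Among the genes of RNA polymerase I, 4 of 5 rose with IL-2 and 3 of 5 with FP. Polr1b (chromosome 2, 129100995 to 129126594, GRCm38, plus strand) stood at 44.7, 37.3, 38.6 and 41.1 CPM in the PBS libraries, 107, 107, 100.0 and 118 with IL-2 and 99.0, 83.9, 84.9 and 71.0 with FP. No PBS library reached the lowest treated one. The log2 change was 1.42 ± 0.10 (SE) with IL-2 and 1.07 ± 0.10 with FP (adjusted p by edgeR 3.5e-07 and 9.31e-06). Rrn3 held 57.3, 56.7, 57.6 and 49.7 CPM in PBS, 91.1, 79.6, 86.7 and 79.9 in IL-2 and 80.7, 78.8, 70.3 and 65.2 in FP libraries, again without overlap, and rose by 0.61 ± 0.09 and 0.42 ± 0.09 log2 units. Polr1a rose with IL-2 (0.41 ± 0.07) and missed the threshold with FP at 0.25 ± 0.07. Polr1c had the smallest change with IL-2, 0.22 ± 0.09, and was called in neither comparison.

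The 3 members that are core proteins of box C/D particles, which place 2'-O-methyl groups on rRNA, all rose with both agents. Nop56 (chromosome 2, 130274430 to 130279313, plus strand) went from 113, 125, 112 and 116 CPM in PBS to 259, 274, 259.7 and 268 with IL-2 and 237, 229, 231 and 172 with FP. The lowest FP library, replicate 4, lay clearly under the other 3 and still above every PBS library. Nop58, its partner in the particle, rose by 1.30 ± 0.14 with IL-2 and 0.91 ± 0.14 with FP, and Fbl, the methyltransferase fibrillarin, by 0.83 ± 0.09 and 0.66 ± 0.09. Of the 4 box H/ACA proteins, which guide pseudouridylation, 3 rose with both agents. Dkc1, the pseudouridine synthase dyskerin, rose by 1.21 ± 0.10 with IL-2 and 0.87 ± 0.10 with FP, and Gar1 by 1.19 ± 0.11 and 0.88 ± 0.11. Nop10, the smallest protein of this particle, was not called, and its libraries overlapped with 26.0, 27.8, 25.4 and 32.2 CPM in PBS and 41.0, 30.9, 44.6 and 30.7 in IL-2.

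The nucleolar proteins rose in 5 of 5 genes with IL-2 and in 3 of 5 with FP. Nolc1, a scaffold of small nucleolar RNPs also called Nopp140, rose by 1.20 ± 0.08 and 0.91 ± 0.08. Npm1, the most abundant member, had 326, 343, 342 and 336 CPM in PBS, 627, 460.1, 657 and 404 with IL-2 and 356, 523, 530.1 and 342 with FP. The IL-2 libraries were all above PBS but spread over a wide range, and the FP libraries reached down to the PBS level. Its log2 change was 0.67 ± 0.17 with IL-2 (called) and 0.38 ± 0.17 with FP (adjusted p 0.163 by edgeR, not called). Ncl was likewise called with IL-2 (0.65 ± 0.10) and not with FP (0.37 ± 0.10).

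On the small subunit side, 15 of 16 processome genes rose with IL-2 and 11 with FP, and all 5 late 40S genes rose with both. Noc4l (chromosome 5, 110648418 to 110653417, minus strand), a partner of Nop14 in 40S assembly, held 27.1, 24.5, 24.7 and 28.7 CPM in PBS, 69.1, 65.9, 68.1 and 71.7 in IL-2 and 61.7, 62.3, 61.1 and 47.7 in FP libraries. All treated libraries lay far above the controls. It rose by 1.39 ± 0.09 and 1.15 ± 0.09 log2 units. Rrp9, a U3 particle protein, rose by 1.45 ± 0.12 and 1.07 ± 0.12. The processome genes Utp20 (0.64 ± 0.08 and 0.39 ± 0.08) and Heatr1 (0.97 ± 0.09 and 0.66 ± 0.09) rose less than Rrp9, with Heatr1 near the members' median. Emg1, an rRNA methyltransferase, was the exception in this class, with 0.23 ± 0.07 and 0.16 ± 0.07, neither called. Rrp12 (chromosome 19, 41862851 to 41896173, minus strand), which takes part in export of the pre-40S particle, went from 27.4, 26.8, 27.4 and 29.1 CPM in PBS to 81.1, 70.9, 70.1 and 80.1 with IL-2 and 66.9, 58.0, 56.2 and 47.1 with FP. Its increase of 1.45 ± 0.10 with IL-2 was the largest of the late 40S genes. Tsr1 also rose (1.38 ± 0.08 and 1.10 ± 0.08), but 32.3% of its exon bases overlap another gene, Srr on the opposite strand, and whether counting used the strand is not stated. Exons of 24 members overlap a gene on the opposite strand, most of all those of Tbl3 (37.3%), Dimt1 (31.9%), Tsr1, Noc2l (20.9%) and Utp14a (11.5%), with at most 9.52% (Urb2) in the other 19. The values of these 24 are uncertain for this reason throughout.

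Of the 18 genes of 60S assembly, 17 rose with IL-2 and 15 with FP. Gnl3 (chromosome 14, 31012433 to 31019152, minus strand), the GTPase nucleostemin, had the largest change of all members with both agents. Its levels were 42.4, 43.7, 44.3 and 45.3 CPM in PBS, 129.7, 136, 137 and 125 in IL-2 and 111, 116, 109 and 73.4 in FP libraries. It rose by 1.59 ± 0.12 with IL-2, a 3.00-fold difference, and by 1.22 ± 0.12 with FP. Nop16 came next with 1.48 ± 0.13 and 1.21 ± 0.13. Nop2, shown above with its E-box, held 43.6, 41.9, 46.2 and 39.5 CPM in PBS, 121, 105, 102 and 117 in IL-2 and 98.0, 88.0, 89.8 and 78.1 in FP libraries, with no overlap, and rose by 1.37 ± 0.09 and 1.05 ± 0.09. Of the complex that the scaffold proteins Bop1 and Pes1 form with Wdr12, Bop1 rose with both agents (0.87 ± 0.09 and 0.64 ± 0.09), and Pes1 with IL-2 (0.59 ± 0.10) but not past the threshold with FP (0.41 ± 0.10).

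At 1.5 h the members were lower with FP than with IL-2 by a median log2 difference of -0.28, with all 56 estimates below 0, from -0.42 ± 0.12 for Rrs1 and -0.40 ± 0.10 for Rrp12 to -0.07 ± 0.07 for Emg1 and -0.02 ± 0.09 for Polr1c. None passed edgeR's test or DESeq2 (0 members by each), nor did any other gene in edgeR's (0%). At an unadjusted p under 0.05, 42 members were lower and 0 higher, against 558 and 412 of the 16643 genes tested. In 27 members every FP library lay under every IL-2 library, as in 2.16% of all genes.

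**Figure D2:**
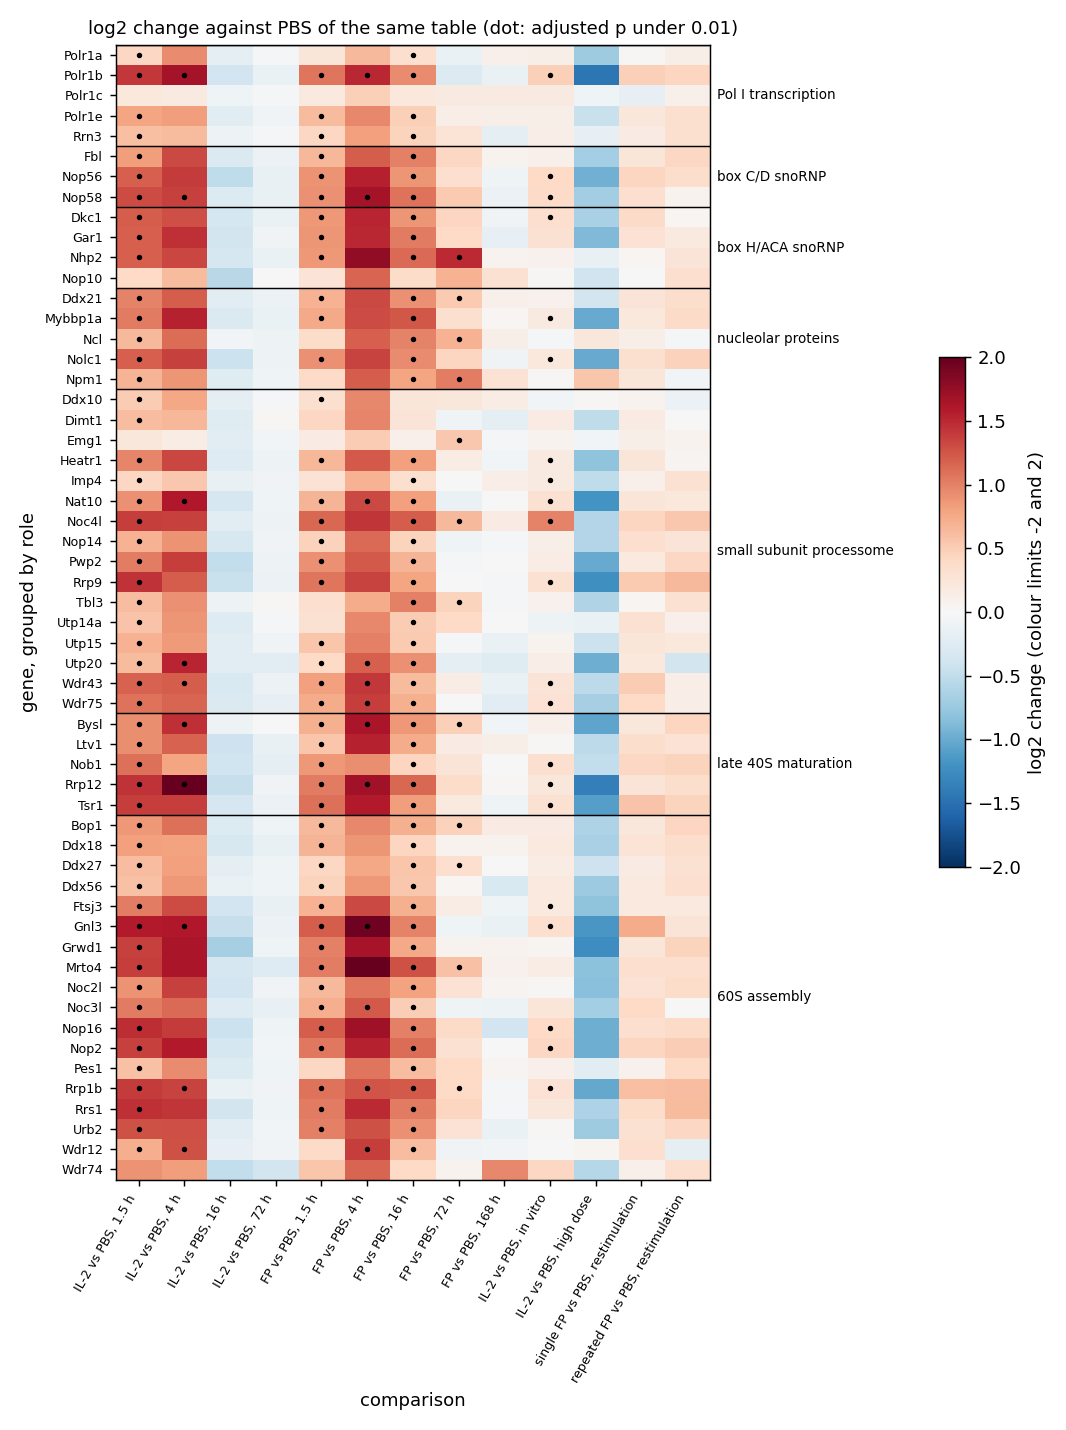
log2 change (colour, red higher and blue lower, limits -2 and 2) of each of the 56 genes, in rows grouped by role, in 13 comparisons with PBS in columns, with a dot where the adjusted p was under 0.01. The 1.5 h columns and the FP column at 16 h carry most dots, with 52, 43 and 50 genes, and the rows of Polr1c, Emg1 and Nop10 stay pale in them.

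At 4 h the libraries were more scattered, with a common biological variation of 38.4%, against 16.3% at 1.5 h. Rrp12 stood at 37.0, 28.9 and 24.7 CPM in PBS, 163, 129, 106 and 87.3 with IL-2 and 91.5, 105 and 95.5 with FP, so that every treated library exceeded every control. Its log2 change was 2.00 ± 0.24 with IL-2 and 1.69 ± 0.24 with FP. Gnl3 rose by 1.61 ± 0.19 and 1.94 ± 0.20, Nat10, which acetylates 18S rRNA, by 1.60 ± 0.16 and 1.33 ± 0.17, and Utp20 by 1.53 ± 0.17 and 1.19 ± 0.18. Mrto4, which prepares the 60S stalk, had the largest estimate with FP, 2.01 ± 0.48, and was not called (adjusted p 0.0472 by edgeR). Npm1 had 535, 353 and 279 CPM in PBS, 1129, 618, 605 and 525 with IL-2 and 931, 1203 and 573 with FP. PBS replicate 1 lay above IL-2 replicate 4, while within each shared replicate number the treated library exceeded the PBS library. The estimates of 0.89 ± 0.36 and 1.21 ± 0.38 were not called. All estimates and calls in this paragraph come from the fit that did not pair libraries by replicate number. Emg1 (0.15 ± 0.34 and 0.50 ± 0.37) and Polr1c (0.17 ± 0.39 and 0.47 ± 0.42) again had the smallest estimates with both agents.

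In counts, 10 of 56 members rose with IL-2 and 12 with FP at 4 h, none fell, and 0.567% and 0.72% of all genes were called higher. All 56 estimates were above 0 in both comparisons, with a median of 1.25 each, against 0.06 and 0.05 for all genes. Every IL-2 library exceeded every PBS library in 46 members, and every FP library did in 50, as in 8.69% and 10.9% of all genes. By the check described under processing, replicate numbers in the labels were taken to pair the libraries of both comparisons. For FP and PBS this is uncertain, since 2 of 3 pairs correlated best with their own number. A tag in the column names also joins PBS replicate 1 to FP replicate 2. With the replicate as a block 41 members rose with IL-2 and 46 with FP, against 2.36% and 3.93% of all genes. The IL-2 count fell to 4 with lane as a covariate. All compared IL-2 and PBS libraries were on lane L002, so that fit cannot show an effect of lane on this comparison. For FP that fit rests on replicate 1, the only FP library on lane L002 with PBS, and decides nothing. Of the compared libraries, FP replicates 2 and 4 were alone on lane L001. In fits of the compared groups only, the counts were 3 and 0. With the contradicting labels read by title, which the column names match, they were 25 and 29. Read by injected molecule they were 0 and 0. Il2ra, scaled with these 2 libraries included, was 577 CPM in the one titled PBS 3 and 2158 in the one titled FP 3. In the compared libraries at 4 h Il2ra ran from 431 to 774 CPM in PBS and from 2021 to 2900 in FP. Within 1 tag of the column names, whose meaning the labels do not give, the members summed to 3781 CPM in PBS and 8459 in IL-2, to 3221 in PBS, 6741 in IL-2 and 7456 in FP, and to 4934 in PBS and 11525 in FP. The counts fell below 10 and 12 when any 1 PBS library was left out (0 with IL-2 each time, and 1, 0 and 1 with FP without replicate 1, 2 and 4). Without IL-2 replicate 2 or 3 the IL-2 count was 1 or 3, and without FP replicate 1, 2 or 4 the FP count was 2, 1 or 7. Against each other, FP and IL-2 gave 0 members by edgeR and 0 by DESeq2 (0% of all genes by edgeR), none at an unadjusted p under 0.05, and a median log2 difference of 0.10.

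At 16 h the members were higher with FP than with IL-2 or PBS. With FP, 50 of 56 members rose against PBS, where 14.4% of all genes were called higher, with a median log2 change of 0.79 (1.73-fold) beside -0.05 for all genes. With IL-2 none was called, where 0.344% of all genes were called higher and 0.00573% lower. All 56 estimates with IL-2 lay under 0, with a median of -0.29. Set directly against IL-2, FP was higher in 56 of 56 members, where 16.8% of all genes were, with a median log2 difference of 1.10 (2.14-fold), and in all 56 the lowest FP library exceeded the highest IL-2 library, as in 24% of all genes. Summed levels were 3616 to 4578 CPM in PBS, 3291 to 3502 in IL-2 and 6660 to 7578 in FP libraries. Myeloid sums overlapped (402 to 640, 487 to 811 and 314 to 633 CPM).

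Polr1b at 16 h held 46.8, 51.6, 47.4 and 43.0 CPM in PBS, 37.3, 38.1, 34.8 and 34.0 with IL-2 and 84.2, 81.4, 102 and 94.6 with FP. The IL-2 libraries were all lower than PBS and the FP libraries all higher. Its log2 change against PBS was 0.94 ± 0.08 with FP and -0.39 ± 0.08 with IL-2, the latter not called (adjusted p 0.0406 by edgeR). Rrn3 (0.45 ± 0.07 with FP), Polr1a (0.33 ± 0.07) and Polr1e (0.47 ± 0.09) also rose, and Polr1c did not pass (0.20 ± 0.08). In the box C/D group Nop56 had 114, 129, 167 and 138 CPM in PBS, 104, 93.1, 95.7 and 93.0 with IL-2 and 246, 229.9, 266 and 271 with FP. PBS replicate 3 was the highest control, and no IL-2 library reached the lowest one. Nop56 was -0.51 ± 0.10 with IL-2 (adjusted p 0.0186, not called by edgeR) and rose by 0.89 ± 0.10 with FP. Nop58 and Fbl rose by 1.09 ± 0.11 and 1.01 ± 0.10 with FP.

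Among box H/ACA proteins Nhp2 (1.13 ± 0.16), Gar1 (1.04 ± 0.14) and Dkc1 (0.89 ± 0.08) rose with FP, and Nop10 was not called (0.36 ± 0.14). All 5 nucleolar proteins rose. Ncl, which had not been called with FP at 1.5 h, held 499, 519, 578 and 562 CPM in PBS and 993, 1018, 1138 and 1141 with FP, a log2 change of 0.99 ± 0.08, while the IL-2 libraries stayed among the controls at 504, 562, 511 and 499. Mybbp1a, a nucleolar protein that binds Myb and also acts in rRNA processing, rose by 1.24 ± 0.11. Of the processome 13 of 16 genes rose, led by Noc4l with 1.21 ± 0.13, and all 5 late 40S genes, from Nob1, the nuclease that makes the 3' end of 18S rRNA (0.43 ± 0.09), to Rrp12 (1.15 ± 0.10). Emg1 had the smallest estimate, 0.10 ± 0.08.

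Of the 60S genes 17 of 18 rose with FP at 16 h. Mrto4 had the largest change of all members, 1.27 ± 0.14, with 16.6, 18.8, 29.2 and 16.9 CPM in PBS and 46.1, 43.2, 52.2 and 55.1 with FP. Gnl3 held 41.7, 37.0, 56.2 and 55.3 CPM in PBS, 36.5, 34.4, 34.2 and 33.4 with IL-2 and 87.5, 94.4, 107 and 91.7 with FP. The IL-2 libraries all lay below the lowest PBS library and the FP libraries above the highest. It rose by 1.00 ± 0.11 with FP and was -0.46 ± 0.12 with IL-2. The lowest estimate with IL-2 was that of Grwd1, a histone-binding WD protein of 60S assembly, at -0.66 ± 0.15 (adjusted p 0.0507 by edgeR). For IL-2 at 16 h, 43 members were lower at an unadjusted p under 0.05, against 7.19% of all genes, 23 had every IL-2 library under every PBS library, against 2.81%, and DESeq2 called 4 members and 0.169% of all genes lower. Without PBS replicate 1, edgeR called 2 lower.

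**Figure D3:**
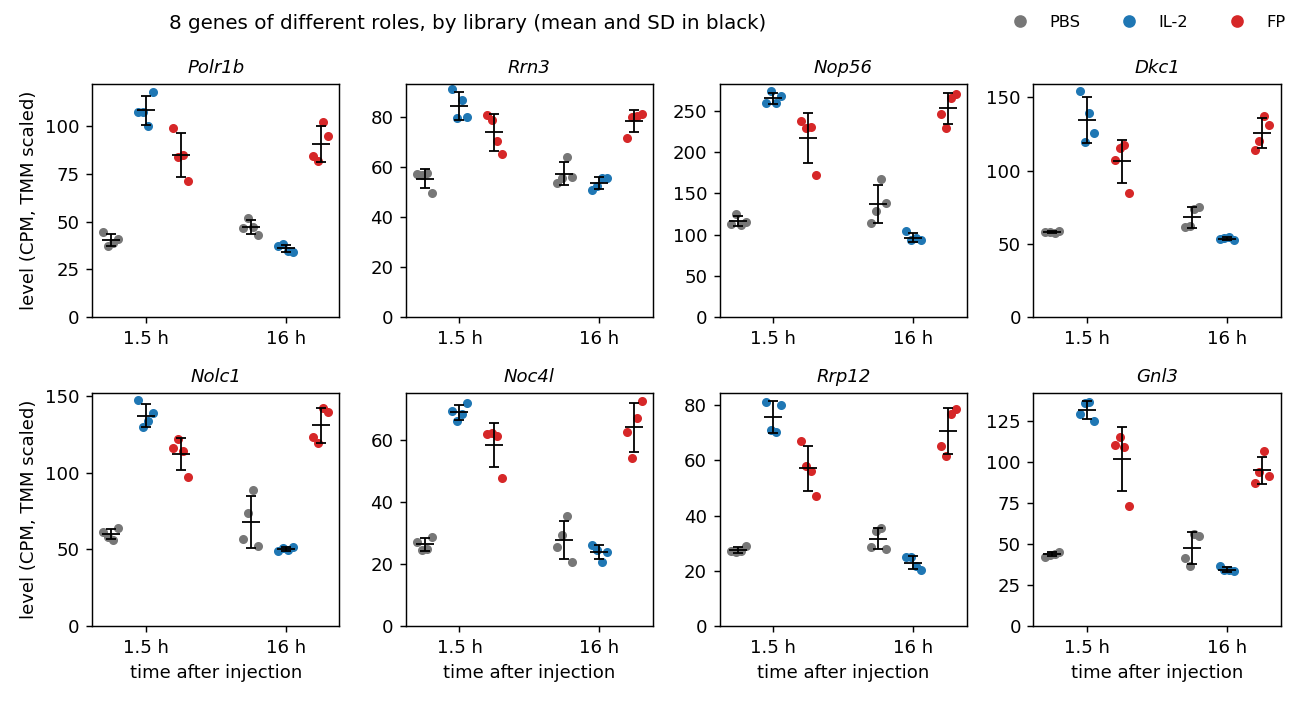
Level (vertical axis, CPM) in every library of 8 genes of different roles at 1.5 h and 16 h (horizontal axis), PBS grey, IL-2 blue and FP red, with mean and SD in black. At 1.5 h all treated points stand above PBS, and at 16 h the FP points stand above PBS while the IL-2 points do not, as for Gnl3 with 33.4 to 36.5 CPM in IL-2 and 87.5 to 107 CPM in FP.

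Whether an effect differed between times was tested as the difference of the log2 changes, each table keeping its own PBS libraries. Time and table cannot be told apart in these tests. The IL-2 effect was lower at 16 h than at 1.5 h in 54 of 56 members, where 7.83% of all genes were called lower, with a median difference of -1.29. Gnl3 had the largest drop at -2.04 ± 0.17, and Polr1c (-0.30 ± 0.12) and Npm1 (-0.92 ± 0.26) were not called. The FP effect had a median difference of 0.08 over the same interval, and 3 of 56 members were called, all higher, where 3.56% of all genes were: Tbl3 (0.70 ± 0.16), Ncl (0.65 ± 0.12) and Utp20 (0.54 ± 0.10). Without PBS replicate 3 of the 16 h table, whose members summed to 4578 CPM, the highest of that group, 5 were called. A difference that misses the threshold does not show that the effects are alike: for Polr1b it was -0.10 ± 0.13.

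At 72 h FP gave a mixed picture. Of 56 members 12 rose and none fell, or 21.4%, close to the 17.3% of all genes called higher, and the median log2 change was 0.28 beside -0.05 for all genes. Nhp2 (chromosome 11, 51619735 to 51623714, plus strand), of the box H/ACA particle, had 17.99, 16.2 and 13.9 CPM in PBS and 72.0, 51.9, 33.5 and 22.9 with FP, a log2 change of 1.49 ± 0.32. Every FP library exceeded every PBS library, but FP replicates 1 and 2 were far above replicates 3 and 4. Npm1 followed the same order, with 412, 319.8 and 298 CPM in PBS and 986, 855, 521 and 418 with FP (1.02 ± 0.26). Ncl rose by 0.69 ± 0.18, Noc4l by 0.65 ± 0.12, Ddx21 by 0.53 ± 0.13 and Bop1 by 0.47 ± 0.09. Emg1, not called with FP at earlier times, rose by 0.54 ± 0.12. Polr1b, in contrast, held 44.7, 47.3 and 39.1 CPM in PBS and 38.4, 35.7, 35.5 and 34.5 with FP, all FP libraries under all controls, at -0.28 ± 0.09 (adjusted p 0.0213 by edgeR, not called). Utp20 was -0.19 ± 0.08 and Gnl3 -0.09 ± 0.15, neither called.

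The direction at 72 h depended on the scaling: with library totals in place of TMM factors, 1 member was called higher and 10 lower (9.51% and 23.3% of all genes, so neither share of the members exceeded that of all genes), the members' median was -0.033, and the median of all genes moved to -0.36. Leaving out 1 library gave 6 members called without FP replicate 1 or 2, 26 without FP replicate 4, 2 without PBS replicate 2 and 1 without PBS replicate 3. Summed levels were 3350 to 4026 CPM in PBS, 3152 to 3640 in IL-2 and 3922 to 5927 in FP. Myeloid markers (11 of 12 measured, none at 0 throughout a group) summed to 326 to 815 CPM in PBS and 24.0 to 93.5 in FP, and their part in the result was not tested. The FP effect was lower at 72 h than at 16 h in 21 of 56 members, where 7% of all genes were called lower, with a median difference of -0.55 under TMM and -0.84 with library totals, which moved the median of all genes from 0.02 to -0.26. The largest drops were those of Polr1b (-1.23 ± 0.11), Utp20 (-1.11 ± 0.10) and Gnl3 (-1.09 ± 0.20), and the count was 33 without PBS replicate 3 of the 16 h table.

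**Figure D4:**
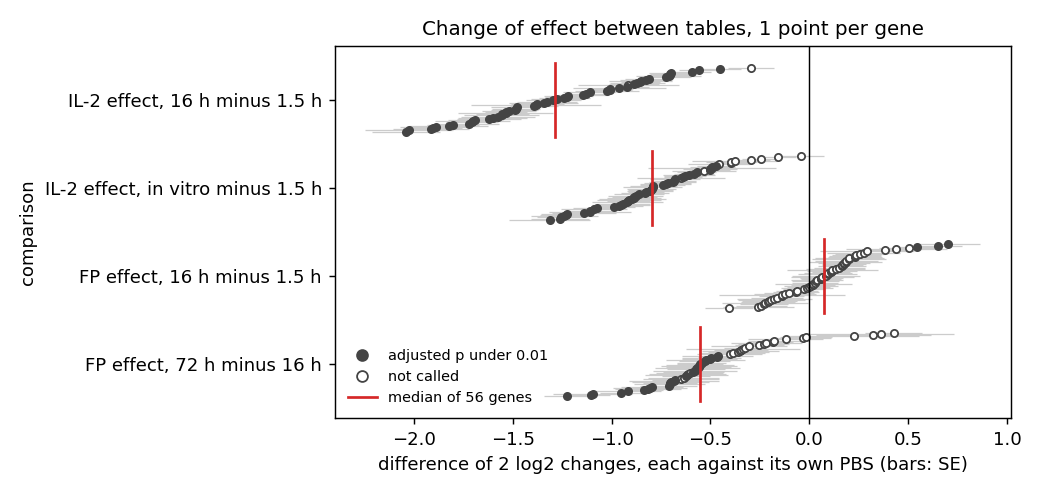
Difference between the log2 changes of 2 tables (horizontal axis, log2 units) for each of the 56 genes in 4 comparisons (vertical axis), with SE bars in grey, filled points where the adjusted p was under 0.01 and the median in red. The IL-2 effect dropped between 1.5 h and 16 h in 54 genes (median -1.29), while the FP effect at 16 h scatters around that at 1.5 h (median 0.08) and lies lower again at 72 h (median -0.55).

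With IL-2 at 72 h and FP at 168 h no member was called in either comparison by edgeR or by DESeq2 (0 each), where 0% and 0.201% of all genes were called higher and 0% and 1.01% lower by edgeR. At an unadjusted p under 0.05, 1 member was lower with IL-2 at 72 h and 3 were lower with FP at 168 h, against 0.274% and 7.85% of all genes. The medians were -0.09 and -0.02. At 72 h with IL-2 the estimates ran from -0.36 ± 0.21 for Wdr74 to 0.03 ± 0.13 for Tbl3. At 168 h with FP they ran from -0.38 ± 0.16 for Nop16 to 0.96 ± 0.64 for Wdr74, whose PBS libraries held 2.16, 0.0586 and 0.868 CPM and FP libraries 2.01, 2.196, 2.24 and 1.97. PBS replicate 1 lies among the FP libraries and the other controls far under them. Polr1b at 168 h had 40.6, 48.0 and 39.6 CPM in PBS and 35.9, 41.98, 37.6 and 40.9 with FP, which overlap. Myeloid sums were 219 to 331 CPM in PBS and 26.1 to 37.6 with FP at 168 h, where 9 of 12 markers were measured, and their part was not tested.

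With IL-2 in vitro, 21 of 56 members rose, or 37.5%, where 7.4% of all genes were called higher, and none fell. The changes were small, with a median of 0.17 (1.12-fold). The libraries of this table were close to each other, with summed levels of 3920 to 3974 CPM in PBS and 4233 to 4407 in IL-2, and myeloid sums of 113 to 114 and 110 to 124 CPM. Noc4l stood out, with 22.4, 20.6 and 21.8 CPM in PBS and 43.3, 46.1 and 39.8 with IL-2, a log2 change of 1.00 ± 0.07. All IL-2 libraries were far above PBS. Polr1b rose by 0.47 ± 0.08, Nop2 by 0.42 ± 0.06, Nop56 by 0.40 ± 0.04, Nop58 by 0.38 ± 0.04 and Gnl3 by 0.33 ± 0.04. Ncl, at 813, 873 and 839 CPM in PBS and 853, 827 and 813 with IL-2, overlapped and was not called (-0.02 ± 0.04), nor was Npm1 (0.03 ± 0.04).

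The IL-2 effect was smaller in culture than in the animal at 1.5 h in 44 of 56 members, with a median difference of -0.79. Of all genes 2.84% were called lower. Culture and table cannot be told apart in this test. Grwd1 (-1.31 ± 0.21) and Gnl3 (-1.26 ± 0.15) differed most. Noc4l, the leading member in culture, had a difference of -0.39 ± 0.13 (not called), and Polr1c one of -0.04 ± 0.11. The PBS libraries of these tables also differed in level: Gnl3 held 75.3 to 79.2 CPM in cultured and 42.4 to 45.3 CPM in injected controls, on separate scalings.

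In the high-dose table no member was called by edgeR, nor was any other gene (0%), while DESeq2 called 6 members and 0.834% of all genes lower. The members' estimates were mostly negative, with a median of -0.66 (0.63-fold) and 52 of 56 under 0. In 34 members every IL-2 library lay under every PBS library, as in 14.7% of all genes, and 33 were lower and 1 higher at an unadjusted p under 0.05, against 9.61% and 6.85% of all genes. Polr1b had 45.6, 36.9 and 52.3 CPM in PBS and 14.02, 20.2 and 15.4 with IL-2, a log2 difference of -1.44 ± 0.22 (adjusted p 0.0263 by edgeR). Rrp12 was similar, at 33.4, 28.0 and 36.8 and 13.8, 13.4 and 10.9 CPM (-1.36 ± 0.19). In both genes the groups were separate. Npm1 went the other way, at 293, 255 and 193 CPM in PBS and 409, 315 and 364 with IL-2 (0.56 ± 0.21, not called), and Ncl was 0.23 ± 0.26. With library totals the median was -0.87 and that of all genes moved from -0.04 to -0.24. The common biological variation was 40.7% in this table, the highest of the 8. Myeloid sums were 84.0 to 99.9 CPM in PBS and 45.1 to 72.4 in IL-2 (8 of 12 markers measured), and their part was not tested.

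After a single FP injection in the restimulation table no member was called by edgeR or DESeq2 (0% of all genes called higher by edgeR), with a median log2 change of 0.25 and 13 members higher at an unadjusted p under 0.05, against 2.9% of all genes. Gnl3 held 36.2, 35.4 and 33.6 CPM in PBS and 33.8, 72.8 and 69.8 in the single FP libraries, where replicate 1 sits among the controls and the other 2 above them. Its estimate was 0.75 ± 0.27. Polr1b showed the same pattern, with 41.3, 35.3 and 45.0 and 39.9, 66.7 and 62.4 CPM. Summed over the members, replicate 1 had 3627 CPM, PBS 3337 to 3645 and the other single FP libraries 4542 and 4476. Without that library the median was 0.35 and still 0 members were called. The single FP effect minus that of FP in the 1.5 h table, chosen after seeing the data, had a median of -0.42. By edgeR 0 members were called (0% of all genes), and 31 were lower at an unadjusted p under 0.05, against 5.34% of all genes. Without single FP replicate 1 the median of this difference was -0.32, with 0 members called.

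Repeated FP gave 0 called members by edgeR and by DESeq2 against PBS, where 0.373% of all genes were called higher by edgeR, with a median of 0.32 and 23 members higher at an unadjusted p under 0.05, against 10.7% of all genes. The estimates ran from -0.36 ± 0.21 for Utp20 to 0.64 ± 0.17 for Rrp9. Nop2 had 46.1, 40.2 and 49.6 CPM in PBS and 61.2, 74.9, 51.5 and 67.5 with repeated FP, which do not overlap. Npm1 had 308, 316 and 239 CPM in PBS and 400.2, 121, 338 and 245 with repeated FP, where replicate 2 lay lowest. Library totals gave a median of 0.17 and moved that of all genes from -0.02 to -0.16. Myeloid sums were 78.9 to 169 CPM in PBS and 31.4 to 79.8 in repeated FP (9 of 12 markers measured), and their part was not tested. Against single FP, repeated FP had a median of 0.05 under TMM and -0.03 with library totals, with 0 members called by either tool (0.44% of all genes called higher and 0.145% lower by edgeR) and 1 higher and 3 lower at an unadjusted p under 0.05, against 11.2% and 8.51%. Without single FP replicate 1 that median was -0.06.

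The other genes of the pathway were 95 measured of 100 listed (further polymerase subunits, assembly factors and nucleases). Their medians at 1.5 h were lower than those of the members, 0.54 with IL-2 and 0.38 with FP. Both lists were chosen with earlier results of these data known, so this difference does not rank the members within the pathway. Of the 95, 64 rose with IL-2 and 39 with FP, against 8.39% and 4.39% of all genes, and none fell. Naf1, the factor that assembles box H/ACA particles, had the largest change, 2.00 ± 0.13 and 1.56 ± 0.13, followed with IL-2 by Rpf2 (1.43 ± 0.15) and Ppan (1.33 ± 0.09), both of 60S assembly. Ubtf, which holds open the rRNA gene repeats (-0.10 ± 0.07), and Taf1c (-0.21 ± 0.13) and Taf1b (-0.04 ± 0.09), subunits of the promoter factor SL1, were not called. At 4 h 5 of 95 rose with IL-2 and 8 with FP, against 0.567% and 0.72% of all genes. At 16 h 56 of 95 rose with FP, against 14.4% of all genes, and 0 were called with IL-2, and Naf1 was again the largest with FP (1.99 ± 0.13). At 72 h with FP 23 rose and 4 fell, where 17.3% and 13.1% of all genes were called higher and lower. Among those that fell was Mdn1, the large AAA ATPase of 60S maturation (-0.74 ± 0.09). In culture 13 rose and 2 fell, against 7.4% and 6.54% of all genes, the latter Ubtf (-0.22 ± 0.04) and Nop53 (-0.18 ± 0.04).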

How the data were processed

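The deposited tables hold raw counts per gene, made by the authors with STAR 2.5.0 on GRCm38 and featureCounts 1.5.0 on GENCODE M13 annotation, per the labels' design text and the submitters' processing notes. Every gene in them exceeds 0.5 CPM in at least 3 columns. Of 91 samples, 16 are second runs of 72 h and in vitro libraries. Their counts differed from the first run by little more than sampling noise (chi-square per degree of freedom 1.03 to 1.08, against 2.65 to 303 between replicates), so both runs were summed, which left 75 libraries. The 2 libraries at 4 h with contradicting labels were left out.

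Each table was fitted separately with all its groups in edgeR 4.0.16 (R 4.3.3): TMM factors, filterByExpr, quasi-likelihood F test, Benjamini-Hochberg adjustment over all genes tested and a threshold of 0.01. Differences between effects came from joint fits of tables, each with its own PBS. CPM values were scaled with TMM factors. SE was the log2 change divided by the root of F. The tests were run on simulated data first.

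All 56 members were counted. Values in single libraries were given for genes of a panel of 24 chosen by role and for the largest and smallest changes of a comparison. Nop10, Mrto4, Nhp2, Wdr74 and others outside the panel are named as such extremes or for their role. The members and lists were chosen with earlier results of these data known. Alternatives were DESeq2 1.42.0, other scalings and filters, an adjusted p of 0.05, the compared groups alone, first runs only, both readings of the contradicting labels, lane, the replicate number as a block, and leaving out each library.

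Same-numbered libraries were checked for shared deviations from their group means. Every pair correlated above 0.1 at 4 h (0.47 to 0.90 for IL-2 and PBS, 0.17 to 0.85 for FP and PBS) and for IL-2 and PBS at 72 h (0.51 to 0.63), so the numbers were taken to pair those libraries, and not those of the other comparisons. Gene positions are from GENCODE M21 on GRCm38 and promoter sequences from RefSeq.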

Additional observations from a re-analysis of the deposited data

Results flagged for a closer look

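Effects differed between tables by a test of the difference itself in edgeR for 54 of the 56 members (IL-2, 16 h minus 1.5 h), 3 members (FP, 16 h minus 1.5 h), 21 members (FP, 72 h minus 16 h) and 44 members (IL-2, in vitro minus 1.5 h). Of all genes 12.8%, 4.98%, 15.6% and 4.96% differed, so the 3 members for FP are near the share of all genes.

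Of 240 sets of 4 libraries, each a panel gene in a group, 11 held a library set apart from the others by more than Dixon's critical value for 4 samples, where chance alone gives about 1 in 20. Of these, 5 were FP libraries at 1.5 h. Replicate 4 was the lowest for Gnl3 at 73.4 CPM, Noc4l at 47.7 CPM, Nop56 at 172 CPM and Rrp9 at 39.7 CPM, and replicate 1 the highest for Polr1a at 134 CPM. At 1.5 h the others were Fbl at 77.6 CPM and Tsr1 at 111 with IL-2 and Rrn3 at 49.7 in PBS. At 4 h they were Gar1 at 61.1 CPM and Npm1 at 1129 with IL-2, and at 16 h Rrn3 at 71.6 CPM with FP.

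The 4 h library titled FP 3, whose injected molecule reads PBS, had a summed level of the members of 7537 CPM, above the highest PBS library at 4934 CPM. It entered no comparison.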

How the results depend on the processing

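The 4 h counts moved most. Members called for IL-2 and FP, 10 and 12 in the report, were 25 and 29 at an adjusted p of 0.05. They were 32 and 26 with library totals and 32 and 36 with DESeq2. The replicate block gave 41 and 46, and the compared groups only 3 and 0. With the contradicting labels read by title they were 25 and 29, and read by injected molecule 0 and 0 (FP median 0.68). Lane as covariate gave 4 for IL-2, whose libraries were all on lane L002 with PBS. For FP that fit rests on replicate 1. The column-name tag as covariate, chosen after seeing the data, gave 50 and 49. Elsewhere an adjusted p of 0.05 gave 3 (IL-2 16 h, all lower), 28 (FP 72 h), 6 (high dose, all lower), 5 (FP effect 16 h minus 1.5 h) and 35 (FP effect 72 h minus 16 h). DESeq2 gave 4 lower for IL-2 at 16 h and 6 lower at high dose. For FP at 72 h, library totals gave 11 (1 higher, 10 lower) and a median of -0.033, the replicate block, whose numbers did not pair those libraries by the check (lowest correlation 0.086), 29, and the compared groups only 5. Library totals also gave medians of 0.89 (IL-2 1.5 h), -0.87 (high dose) and -0.74 (in vitro minus 1.5 h), and 47 members with a median of -0.84 for the FP effect 72 h minus 16 h. The block changed no other paired call. The cause was not tested.

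Leaving out 1 library gave 0 to 9 (IL-2 4 h), 0 to 7 (FP 4 h), 0 to 2 (IL-2 16 h), 1 to 26 (FP 72 h), 2 to 5 (FP effect 16 h minus 1.5 h) and 16 to 33 members (FP effect 72 h minus 16 h). Medians ran from 0.94 to 1.00 (IL-2 1.5 h), 0.16 to 0.19 (in vitro) and -0.82 to -0.76 (in vitro minus 1.5 h). Of 177 called pairs of a panel gene and a comparison, none reversed in 953 alternatives, where 57 lost the call, or in 1748 fits without 1 library, where 120 did. Wide spread between libraries limits the 4 h, high-dose and restimulation tables, with a biological variation of 38.4%, 40.7% and 27.0%, against 4.48% in vitro.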

Other observations

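Non-coding host genes of small nucleolar RNAs, such as Gas5, were measured for 11 of 14 listed. At 1.5 h 4 of 10 rose with IL-2 and 2 of 10 with FP, where 8.39% and 4.39% of all genes were called higher, with medians of 0.35 and 0.15. At 16 h 3 of 11 rose with FP, and 8 of 11 were higher with FP than with IL-2, against 14.4% and 16.8% of all genes.

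Small nucleolar RNA genes lie inside 7 of the 56 members on the same strand, among them Nop56 with 5, Nop58 with 4, and Ncl, Wdr43 and Gnl3 with 3 each.

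The 4 h library titled PBS 3, whose injected molecule names FP, had a summed level of the members of 3527 CPM, an Il2ra level of 577 CPM and a Nop56 level of 99.95 CPM. The library titled FP 3, whose injected molecule reads PBS, had an Il2ra level of 2158 CPM and a Nop56 level of 255 CPM.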
